A study of Homo sapiens with 28 samples.

Results

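The integrated stress response genes examined here are 10 genes chosen by symbol, with earlier results of these data known, ATF4, ATF3, DDIT3, TRIB3, ASNS, CHAC1, SESN2, PPP1R15A, VLDLR and GDF15. All 10 were found among the 19662 gene symbols of each expression table, and all 10 passed the filter on low values in both cell lines. Their mRNA was measured by RNA-Seq in 16 libraries, 8 from each of the PC3 and LNCaP cell lines, as read numbers scaled by transcript length and library size (RPKM). PC3 and LNCaP are established human prostate cancer cell lines, the first from a bone and the other from a lymph node metastasis. PC3 cells received a control siRNA (siCtrl) or an siRNA against the transcription factor ONECUT2 (siOC2), and LNCaP cells carried an empty vector (EV) or overexpressed Flag-tagged ONECUT2 (OC2), from which of the vectors of the study is not given in the sources used here. Each condition was cultured in normoxia or in hypoxia at 0.2% oxygen, which gives 4 groups of 2 libraries in each line. In the siOC2 groups, replicate 1 was made with siRNA1 and replicate 2 with siRNA2, so each siRNA has 1 library at each oxygen level. The length of the hypoxia treatment and whether the libraries of a group came from separate cultures are not given in the sources used here, so the p-values measure the spread between these libraries, which may be technical. The 12 ChIP-Seq samples of the study were not analysed here.

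The integrated stress response starts when kinases that sense misfolded protein, missing amino acids, viral RNA or lack of heme phosphorylate the translation factor eIF2. General protein synthesis then slows, while the mRNA of the transcription factor ATF4 is translated better, so that the ATF4 protein can rise without its mRNA. ATF4 drives genes for amino acid uptake and synthesis, tRNA charging and redox balance, and with ATF3 and DDIT3 (CHOP) genes of cell death. PPP1R15A (GADD34) brings a phosphatase to eIF2 and closes the loop, and TRIB3 is a pseudokinase that restrains ATF4 and CHOP. Severe hypoxia is known to engage this response in tumour cells, beside the HIF factors. Several of these genes also answer to other signals, VLDLR to HIF, and GDF15, ATF3, SESN2 and PPP1R15A to p53, which PC3 cells lack and LNCaP cells have.

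The bases that ATF4 and CCAAT/enhancer-binding proteins are known to read are shown first, since the members differ in carrying them near the start site. The motif TGATGNAA was searched on both strands in windows of 300 bases, from 250 bases before to 50 bases after each RefSeq start site. It lies in a window of 3 of the 10 members, ATF3, ASNS and CHAC1, and of 4.46% of all 27305 genes. A gene counts if any of its windows holds the motif, and the ATF3 match is at a start site at the far 5′ end of that gene. Of the aminoacyl-tRNA synthetases, 10 had a window and 7 held the motif. Runs of 30 bases around the motif are given 5′ to 3′ along the gene, with the motif in capitals. The last run is the part of the VLDLR window with 3 copies of GCGTG, the core that HIF factors read, here as its reverse complement CACGC.
ASNS: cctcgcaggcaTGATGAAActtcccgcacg
CHAC1: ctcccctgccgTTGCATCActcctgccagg
ATF3: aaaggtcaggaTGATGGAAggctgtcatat
AARS: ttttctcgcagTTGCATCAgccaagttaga
GARS: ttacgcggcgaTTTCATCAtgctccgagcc
VLDLR: gtcactCACGCACGCtcacactcgCACGCt

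In GRCh37, by exact match, the runs are at chr7:97501770-97501799 for ASNS (minus strand), chr15:41245449-41245478 for CHAC1 (plus), chr1:212738547-212738576 for ATF3 (plus), chr16:70323578-70323607 for AARS (minus), chr7:30634450-30634479 for GARS (plus) and chr9:2621620-2621649 for VLDLR (plus). All lie upstream of the RefSeq start used. GENCODE annotates longer transcripts of these genes, so that all but the ATF3 run fall in an annotated first exon, in the 5′ UTR. VLDLR has 5 copies of GCGTG upstream of this start, and 7 of the 10 members have at least 1 in a window, against 40.6% of all genes. ACGTG, the other common form of the HIF core, was found in ATF4 alone among the members, against 24.9% of all genes. TGACGT, read by ATF and CREB proteins, was found in PPP1R15A alone, against 9.64%. The motifs ATCGAT and ATTGAT, which ONECUT factors are known to read, were in no member window and in 0.938% and 7.64% of all genes. These matches describe letters in a window and show no binding.

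In GRCh37 ATF4 spans chr22:39915700-39918688, ATF3 chr1:212738676-212794119, DDIT3 chr12:57910371-57915520, TRIB3 chr20:343479-378203 and ASNS chr7:97480989-97501854. CHAC1 spans chr15:41245160-41248710, SESN2 chr1:28586029-28609002, PPP1R15A chr19:49375469-49379316, VLDLR chr9:2621182-2660056 and GDF15 chr19:18485541-18499986. DDIT3 and ASNS are on the minus strand and the others on the plus strand.

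Of 6 markers of the LNCaP line, 6 passed the filter on low values in LNCaP cells and 2 in PC3 cells. Of 5 markers of the PC3 line, 5 passed it in PC3 cells and 2 in LNCaP cells. KLK3, which codes for prostate-specific antigen, lay between 1842 and 3997 RPKM in LNCaP cells and was listed at 0 in all PC3 libraries. ONECUT2 was at 1.77 and 1.16 RPKM in the siCtrl libraries in normoxia and at 0.276 and 0.204 RPKM with siOC2. In hypoxia it was at 0.648 and 0.550 RPKM with siCtrl and at 0.125 and 0.214 RPKM with siOC2. The LNCaP table gives no ONECUT2 value for the OC2 libraries, so the overexpression could not be checked here. All 8 hypoxia marker genes tested in PC3 and all 6 tested in LNCaP, such as NDRG1 and PDK1, were called higher in hypoxia in both conditions of each line. Relative depth, estimated from the steps between low values, ran from 0.347 to 1.15 in PC3 cells, where siOC2 replicate 1 in hypoxia, siCtrl replicate 2 in hypoxia and siCtrl replicate 1 in normoxia were the shallow libraries, and from 0.685 to 1.25 in LNCaP cells.

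In PC3 cells, stress response genes were higher with siOC2 than with siCtrl, most of all CHAC1, SESN2, GDF15 and TRIB3. In normoxia 8 of the 10 members were called higher and 0 lower, where a call needs more than a 2-fold change together with an unadjusted P under 0.05 from limma. Of all 12214 genes tested, 3.62% were called higher and 1.59% lower. Of the 10, 0 had an adjusted p under 0.05 (Benjamini-Hochberg over all genes, limma), which 1 gene of the table reached, or 0.00819%, and 8 had an unadjusted P under 0.05. For counts at an unadjusted P under 0.05 alone, here and below, the share of all genes is not given, so they are descriptions. Errors of fold changes are standard errors (SE) of the fit. The median log2 fold change of the members was 1.51, and that of all genes 0.13. With 2 libraries against 2, an exact permutation test of 1 gene cannot give a 2-sided p below 0.33.

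**Figure D1:**
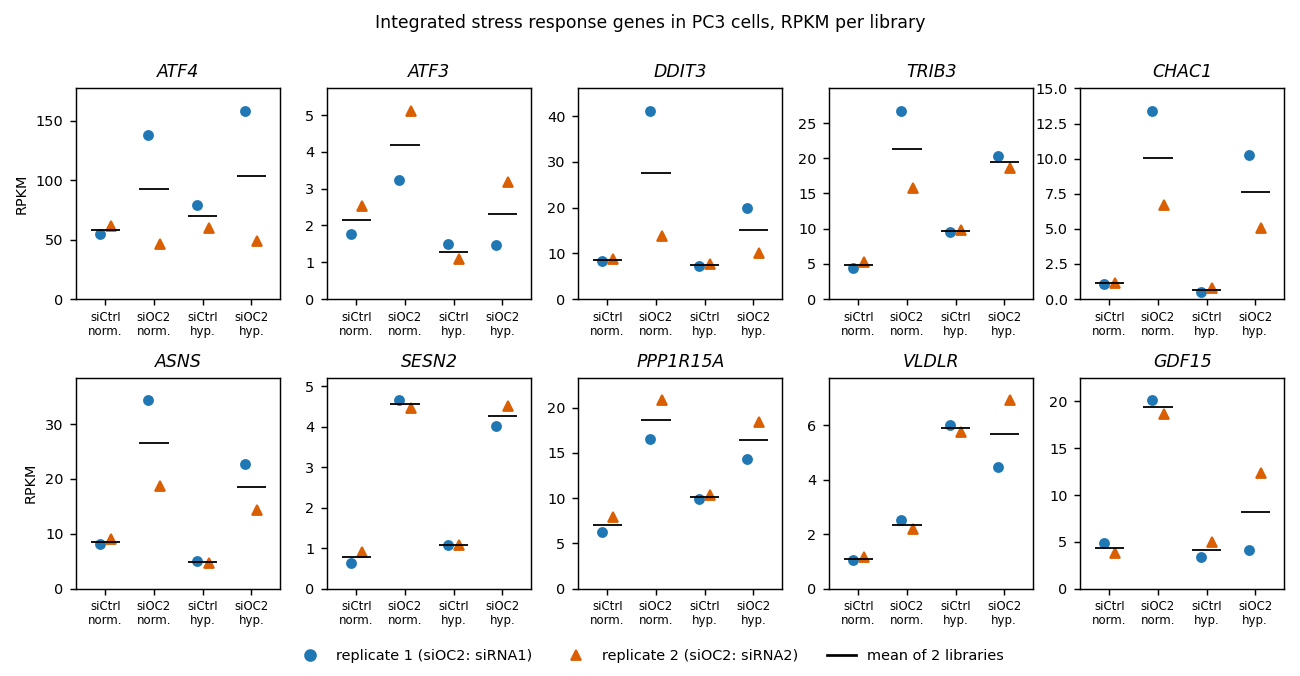
RPKM of the 10 genes in each of the 8 PC3 libraries (y axis, linear from 0), by group (x axis, norm. for normoxia and hyp. for hypoxia). Circles are replicate 1 (siRNA1 in the siOC2 groups), triangles replicate 2 (siRNA2), and bars the mean of 2 libraries; ATF4 is high only in the siRNA1 libraries, whereas CHAC1, ASNS, SESN2 and TRIB3 are above both siCtrl libraries with either siRNA.

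CHAC1, which breaks down glutathione, was at 1.10 and 1.17 RPKM with siCtrl and at 13.4 and 6.70 RPKM with siRNA1 and siRNA2. Both siOC2 libraries lay above both controls, by a log2 fold change of 2.96 (± 0.48 SE, adjusted p = 0.126 by limma), or 7.76-fold. SESN2, a sestrin that restrains mTORC1 when leucine is short, was at 0.639 and 0.908 RPKM with siCtrl and at 4.65 and 4.47 RPKM with siOC2. The SESN2 values hardly differed between the siRNAs, and the log2 fold change was 2.43 (± 0.36 SE, adjusted p = 0.103 by limma). TRIB3 was at 4.48 and 5.21 RPKM with siCtrl and at 26.8 and 15.8 RPKM with siOC2. Its log2 fold change was 2.07 (± 0.31 SE, adjusted p = 0.103 by limma).

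ASNS, the enzyme that makes asparagine, was at 8.08 and 9.14 RPKM with siCtrl and at 34.3 and 18.8 RPKM with siOC2. Its log2 fold change was 1.55 (± 0.37 SE, adjusted p = 0.212 by limma). GDF15, a secreted stress cytokine that curbs appetite, was at 4.92 and 3.82 RPKM with siCtrl and at 20.1 and 18.7 RPKM with siOC2, and the groups did not overlap (log2 fold change 2.13 ± 0.49 SE, adjusted p = 0.203 by limma). PPP1R15A was at 6.25 and 7.87 RPKM with siCtrl and at 16.5 and 20.8 RPKM with siOC2 (log2 fold change 1.39 ± 0.28 SE, adjusted p = 0.192 by limma).

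DDIT3, which codes for the death-promoting factor CHOP, was at 8.30 and 8.73 RPKM with siCtrl, 41.2 RPKM with siRNA1 and 13.8 RPKM with siRNA2. Its call (log2 fold change 1.47 ± 0.52 SE, adjusted p = 0.425 by limma) was lost without the siRNA1 library, at 0.69. VLDLR, a receptor that takes up lipoproteins, was at 1.05 and 1.16 RPKM with siCtrl and at 2.54 and 2.18 RPKM with siOC2. It lay just above the limit of 2-fold (log2 fold change 1.03 ± 0.34 SE) and fell under it, at 0.93, after upper-quartile scaling. That scaling took the median over all genes from 0.13 to 0.03 on the log2 scale and the share of higher genes among all calls from 69.5% to 56.6%, and left 7 members called, all higher.

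ATF4 itself was at 54.4 and 61.4 RPKM with siCtrl, at 138 RPKM with siRNA1 and at 46.4 RPKM with siRNA2. The siRNA1 library lay above both controls and the siRNA2 library below both, so the groups overlapped (log2 fold change 0.47 ± 0.62 SE, adjusted p = 0.898 by limma). Against the mean of the siCtrl libraries, ATF4 was 2.39-fold with siRNA1 and 0.802-fold with siRNA2, while CHAC1 was 11.8-fold and 5.90-fold and SESN2 6.02-fold and 5.78-fold. The same order held in hypoxia, where ATF4 was at 79.5 and 60.1 RPKM with siCtrl, at 158 RPKM with siRNA1 and at 48.6 RPKM with siRNA2. These folds of 1 library have no replicate check. ATF3 went the other way between the siRNAs, with 3.23 RPKM for siRNA1 and 5.12 RPKM for siRNA2 over controls at 1.78 and 2.53 RPKM, and was not called.

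In hypoxia, 3 of the 10 members were called higher with siOC2 and 0 lower, against 3.55% and 3.95% of all genes. Their median log2 fold change was 0.85, and that of all genes -0.03. CHAC1 was at 0.509 and 0.766 RPKM with siCtrl and at 10.3 and 5.03 RPKM with siOC2, a log2 fold change of 3.33 (± 0.48 SE, adjusted p = 0.0502 by limma). ASNS was at 4.98 and 4.74 RPKM with siCtrl and at 22.8 and 14.4 RPKM with siOC2 (log2 fold change 1.87 ± 0.37 SE, adjusted p = 0.0946 by limma). SESN2 was at 1.08 RPKM in both siCtrl libraries and at 4.02 and 4.51 RPKM with siOC2 (log2 fold change 1.88 ± 0.36 SE, adjusted p = 0.0927 by limma). For these genes, as for TRIB3, PPP1R15A and DDIT3, both siOC2 libraries lay above both controls at either oxygen level. The share of all genes for which this held is not given here.

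TRIB3 in hypoxia was at 9.58 and 9.88 RPKM with siCtrl and at 20.4 and 18.7 RPKM with siOC2, just under the limit of 2-fold (log2 fold change 1.00 ± 0.31 SE, adjusted p = 0.25 by limma). PPP1R15A was at 9.86 and 10.4 RPKM with siCtrl and at 14.3 and 18.4 RPKM with siOC2 (log2 fold change 0.68 ± 0.28 SE, adjusted p = 0.389 by limma). GDF15 split by siRNA, with 4.08 RPKM for siRNA1 and 12.4 RPKM for siRNA2 over controls at 3.38 and 4.95 RPKM, and DDIT3 split the other way, with 19.9 and 10.1 RPKM over 7.18 and 7.76 RPKM. VLDLR, at 6.02 and 5.74 RPKM with siCtrl and 4.46 and 6.91 RPKM with siOC2, overlapped between the groups. Without either of the siOC2 libraries in hypoxia, of which the siRNA1 library was the shallowest, 5 members were called, all higher. The calls over all genes, 434 higher and 482 lower with both libraries, then became 1118 and 417 without siRNA1 and 513 and 1891 without siRNA2.

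Few of these genes were called between hypoxia and normoxia in PC3 cells. Over normoxia, in the siCtrl libraries, 1 of the 10 was called higher and 0 lower, against 2.23% and 1.63% of all genes. It was VLDLR, from 1.05 and 1.16 RPKM in normoxia to 6.02 and 5.74 RPKM in hypoxia. VLDLR was also the only member with an adjusted p under 0.05, where 0.27% of all genes were higher at that limit. Its log2 fold change was 2.32 (± 0.34 SE, adjusted p = 0.0432 by limma), or 4.98-fold. Its size stayed between 1.71 and 2.38 over all alternatives, but the adjusted p ranged from 0.000287 to 0.584. TRIB3, from 4.48 and 5.21 RPKM to 9.58 and 9.88 RPKM, had a log2 fold change of 0.99 (± 0.31 SE, adjusted p = 0.451 by limma) and was not called. Its unadjusted P was 0.0125 (limma), and its size stayed between 0.88 and 1.10 over all alternatives. The spread in the fit is shared with the siOC2 groups, whose libraries hold different siRNAs. Over all genes, the log2 difference between replicates had an SD of 0.857 and 1.04 in the siOC2 groups (normoxia and hypoxia). In the siCtrl groups it was 0.520 and 0.504. ASNS in the same libraries was at 8.08 and 9.14 RPKM in normoxia and 4.98 and 4.74 RPKM in hypoxia (unadjusted P = 0.0562 by limma). In the siOC2 libraries VLDLR was called higher and GDF15 lower, against 1.11% and 2.35% of all genes. Upper-quartile scaling moved the share of higher genes among all calls there from 32% to 45.7% and the median of all genes from -0.22 to -0.09 on the log2 scale. VLDLR had a log2 fold change of 1.21 (± 0.34 SE, adjusted p = 0.719 by limma). GDF15 had one of -1.43 (± 0.49 SE, adjusted p = 0.719 by limma), which came mostly from siRNA1, at 20.1 RPKM in normoxia and 4.08 RPKM in hypoxia, and was -0.64 and not called without that library in hypoxia.

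**Figure D2:**
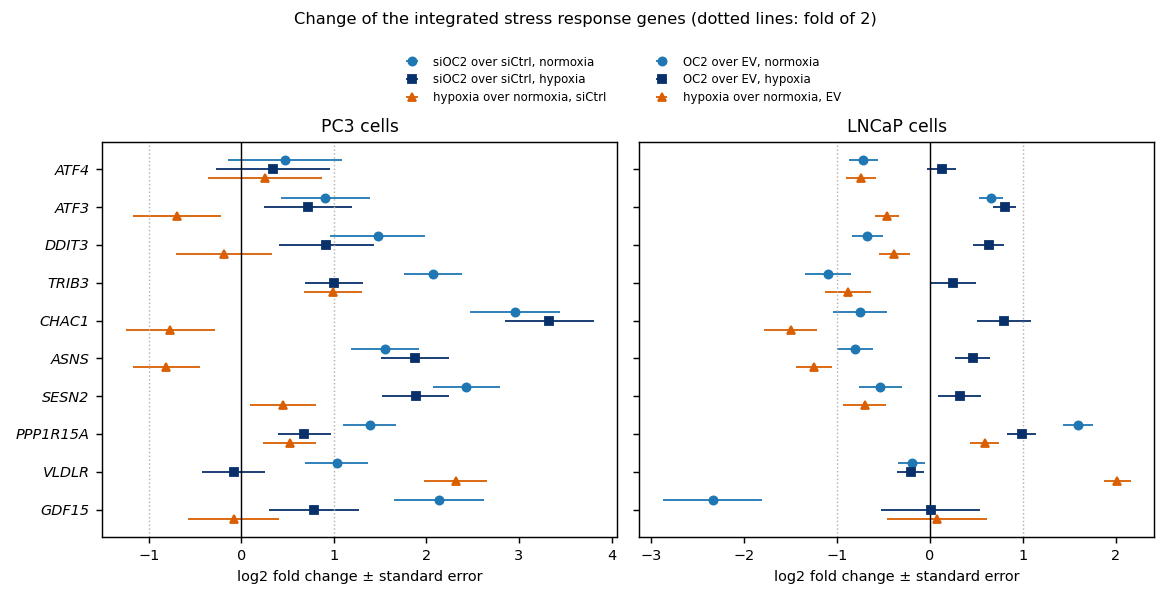
Log2 fold change of each gene (x axis) with its standard error (bars) from the limma fit, in PC3 cells (left) and LNCaP cells (right). Circles compare ONECUT2 levels in normoxia, squares the same in hypoxia, triangles hypoxia with normoxia in control cells, and dotted lines mark a fold of 2; in PC3 most circles lie to the right of 1, whereas in LNCaP GDF15 lies at -2.34 and VLDLR in hypoxia at 2.02.

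In LNCaP cells the members moved in both directions with OC2 in normoxia. GDF15 and TRIB3 were called lower and PPP1R15A higher, that is 2 and 1 of 10, against 0.48% and 2.81% of all 12283 genes. GDF15 was put among the members for its drop here, so its place in these counts is a description. An adjusted p under 0.05 was found for TRIB3 and ATF4 lower, 3 members only if GDF15 is counted. ATF3 and PPP1R15A were higher at that limit. The shares of all genes were 1.7% lower and 3.56% higher. The count of 3 was 0 after upper-quartile scaling and without any 1 of the 6 libraries other than EV in normoxia, 1 without EV replicate 2 in normoxia and 7 without EV replicate 1. The median log2 fold change of the members, GDF15 among them, was -0.69, and that of all genes -0.08. These comparisons, and those of hypoxia with normoxia in EV cells, share the EV libraries in normoxia, which differed from each other for these genes. With 2 libraries, which of them is unusual cannot be told.

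**Figure D3:**
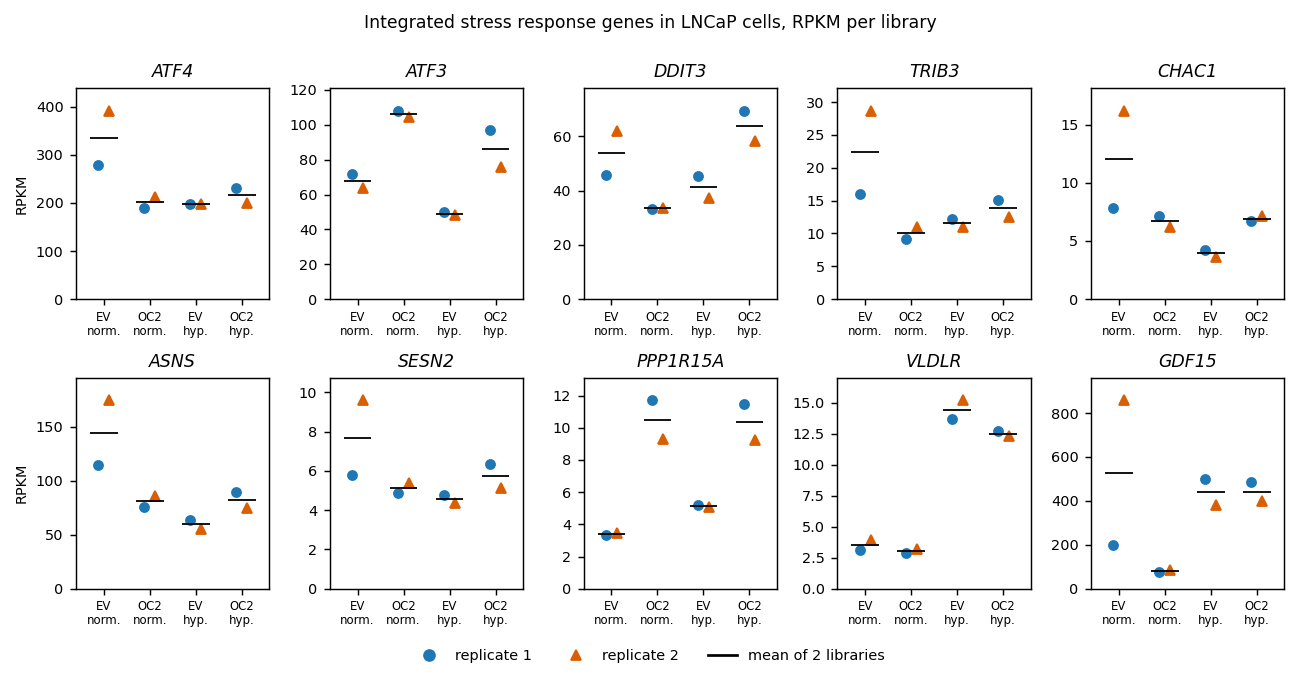
RPKM of the 10 genes in each of the 8 LNCaP libraries (y axis, linear from 0), by group (x axis, norm. for normoxia and hyp. for hypoxia). Circles are replicate 1, triangles replicate 2, and bars the mean of 2 libraries; GDF15 in EV cells in normoxia is at 199 and 858 RPKM, and VLDLR is above 12 RPKM in all hypoxia libraries.

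Replicate 2 of EV in normoxia exceeded replicate 1 in 9 of the 10 members, by over 1.25-fold in 8 and by over 1.5-fold in 5. Of all genes tested, 16.8% were over 1.25-fold and 5.99% over 1.5-fold higher in that replicate. GDF15 differed most, at 199 and 858 RPKM. In the other 3 LNCaP groups no member differed by over 1.5-fold between the replicates. The changes of members that rest on this group are therefore given with and without replicate 2. Without replicate 1 instead, decreases with OC2 in normoxia were larger. The log2 fold changes were then -0.96 for ATF4, -0.89 for DDIT3, -1.51 for TRIB3, -1.11 for ASNS, -1.27 for CHAC1 and -0.89 for SESN2.

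**Figure D4:**
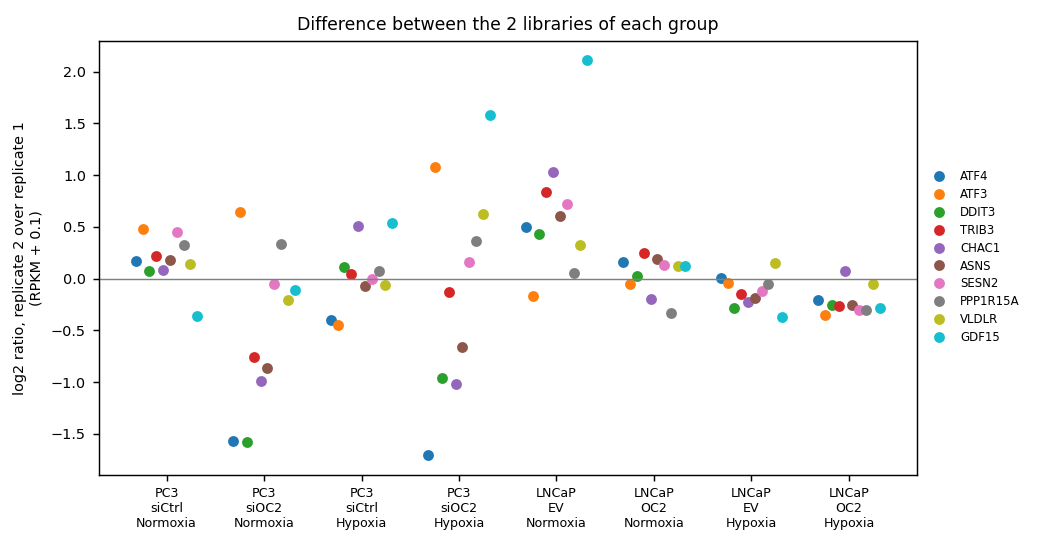
Log2 ratio of replicate 2 over replicate 1 (RPKM + 0.1, y axis) of the 10 genes in each of the 8 groups (x axis), 1 colour a gene. In EV cells in normoxia 9 of the 10 points lie above 0, and in both siOC2 groups ATF4 and DDIT3 are low in replicate 2, the siRNA2 library.

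GDF15 was lower with OC2 in normoxia, the drop for which it was chosen, and its values are given without a test. It was at 199 and 858 RPKM with EV and at 78.4 and 85.2 RPKM with OC2, so that even the lower EV library lay above both OC2 libraries. The log2 fold change was -2.34 (± 0.54 SE), or 5.05-fold lower, and it was -1.28 without EV replicate 2 and -3.39 without EV replicate 1. In hypoxia GDF15 was at 498 and 383 RPKM with EV and at 484 and 398 RPKM with OC2, and the groups overlapped.

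Of the transcription factors, ATF4 was at 278 and 392 RPKM with EV and at 190 and 212 RPKM with OC2 in normoxia. Both OC2 libraries were lower, by a log2 fold change of -0.72 (± 0.16 SE, adjusted p = 0.0409 by limma), and of -0.47 (limma adjusted p = 0.0779) without EV replicate 2. ATF3 was at 71.5 and 63.7 RPKM with EV and at 108 and 104 RPKM with OC2 (log2 fold change 0.65 ± 0.13 SE, adjusted p = 0.0287 by limma), and without EV replicate 2 its log2 fold change was 0.57 (limma adjusted p = 0.0777). DDIT3 was at 45.9 and 62.1 RPKM with EV and at 33.2 and 33.7 RPKM with OC2 (log2 fold change -0.67 ± 0.17 SE, adjusted p = 0.0563 by limma), or -0.45 without EV replicate 2, so ATF3 and DDIT3 had opposite signs.

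PPP1R15A rose with OC2 in normoxia. It was at 3.32 and 3.45 RPKM with EV and at 11.7 and 9.28 RPKM with OC2, a log2 fold change of 1.59 (± 0.16 SE, adjusted p = 0.00157 by limma), and 1.62 without EV replicate 2. TRIB3 was at 16.0 and 28.7 RPKM with EV and at 9.16 and 10.9 RPKM with OC2, a log2 fold change of -1.09 (± 0.25 SE, adjusted p = 0.044 by limma) that became -0.67 and lost its call without EV replicate 2. ASNS, at 115 and 175 RPKM with EV and 75.7 and 86.1 RPKM with OC2, had a log2 fold change of -0.81 (± 0.19 SE, adjusted p = 0.0514 by limma), and of -0.50 without EV replicate 2. CHAC1 was at 7.86 and 16.2 RPKM with EV and at 7.14 and 6.21 RPKM with OC2, and its log2 fold change of -0.75 (± 0.29 SE, adjusted p = 0.162 by limma) was -0.24 without EV replicate 2. SESN2, at 5.78 and 9.60 RPKM with EV and 4.89 and 5.37 RPKM with OC2, had one of -0.53 (limma adjusted p = 0.203), which was -0.17 (limma adjusted p = 0.6) without EV replicate 2. VLDLR lay between 2.90 and 3.91 RPKM in these 4 libraries.

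In hypoxia, 0 of the 10 members were called with OC2, against 3.7% of all genes called higher and 0.773% lower. At an unadjusted P under 0.05 there were 5, all higher, without a share of all genes to set beside them. An adjusted p under 0.05 was found for 3, ATF3, DDIT3 and PPP1R15A, all higher, against 6.72% of all genes higher and 4.82% lower. Leaving out 1 library, this count was 0 without EV replicate 1 or 2 or OC2 replicate 1 in hypoxia and 5 without either EV library in normoxia. PPP1R15A was at 5.23 and 5.06 RPKM with EV and at 11.5 and 9.24 RPKM with OC2, just under the 2-fold limit (log2 fold change 0.99 ± 0.16 SE, adjusted p = 0.00836 by limma). ATF3 was at 49.8 and 48.2 RPKM with EV and at 96.8 and 75.6 RPKM with OC2 (log2 fold change 0.80 ± 0.13 SE, adjusted p = 0.00796 by limma). PPP1R15A and ATF3 thus lay higher in all 4 OC2 libraries than in the EV libraries at the same oxygen level. DDIT3, in contrast with normoxia, was higher with OC2, at 69.5 and 58.2 RPKM over 45.2 and 37.2 RPKM (log2 fold change 0.63 ± 0.17 SE, adjusted p = 0.0448 by limma). ATF4 was at 197 and 198 RPKM with EV and at 232 and 201 RPKM with OC2 (log2 fold change 0.13 ± 0.16 SE, adjusted p = 0.649 by limma).

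In EV cells VLDLR was higher, and most other members lower, in hypoxia than in normoxia. VLDLR was called higher, and ASNS and CHAC1 lower, that is 1 and 2 of 10, against 5.6% and 2.34% of all genes. At an adjusted p under 0.05, 2 members were higher and 6 lower, against 18.2% and 14.1% of all genes. VLDLR went from 3.10 and 3.91 RPKM to 13.7 and 15.2 RPKM, a log2 fold change of 2.02 (± 0.15 SE, adjusted p = 7.56e-05 by limma), or 4.05-fold, and 2.18 without EV replicate 2 in normoxia. CHAC1 went from 7.86 and 16.2 RPKM to 4.26 and 3.63 RPKM, with a log2 fold change of -1.50 (± 0.29 SE, adjusted p = 0.0063 by limma). ASNS went from 115 and 175 RPKM to 63.5 and 55.6 RPKM, with a log2 fold change of -1.25 (± 0.19 SE, adjusted p = 0.00242 by limma). Both were lower in hypoxia than in either normoxia library, and without EV replicate 2 their log2 fold changes of -0.98 and -0.95 (limma adjusted p = 0.00751 and 0.00577) fell just short of 2-fold.

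The other members lower at an adjusted p under 0.05 were TRIB3, ATF4, SESN2 and ATF3, with log2 fold changes of -0.89, -0.74, -0.70 and -0.46 (limma adjusted p = 0.0271, 0.00973, 0.0481 and 0.0262). PPP1R15A was higher, at 0.59 (limma adjusted p = 0.0242). Without EV replicate 2 in normoxia, TRIB3, ATF4, SESN2 and ATF3 had log2 fold changes of -0.47, -0.49, -0.34 and -0.55 (limma adjusted p = 0.0828, 0.0264, 0.208 and 0.0349) and PPP1R15A one of 0.62 (limma adjusted p = 0.0558). The count of 6 lower members was then 4, and it was 2 and 3 without EV replicate 1 and 2 in hypoxia. GDF15, at 199 and 858 RPKM in normoxia and 498 and 383 RPKM in hypoxia, overlapped between the groups. Both of its hypoxia libraries lay above EV replicate 1 in normoxia and below EV replicate 2.

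With OC2, VLDLR and GDF15 were called higher in hypoxia than in normoxia and 0 members lower, against 5.48% and 1.36% of all genes. VLDLR went from 2.90 and 3.16 RPKM to 12.7 and 12.3 RPKM (log2 fold change 2.01 ± 0.15 SE, adjusted p = 0.000107 by limma). GDF15 went from 78.4 and 85.2 RPKM to 484 and 398 RPKM (log2 fold change 2.42 ± 0.54 SE), or 5.36-fold, and the groups did not overlap. Its normoxia libraries here are those of the drop for which GDF15 was chosen. Its place in this count is therefore a description, and it gets no p here. In EV cells the same comparison depended on the normoxia library taken, as given above. DDIT3 went from 33.2 and 33.7 RPKM to 69.5 and 58.2 RPKM (log2 fold change 0.92 ± 0.17 SE, adjusted p = 0.00591 by limma). ASNS, at 75.7 and 86.1 RPKM in normoxia and 89.4 and 74.8 RPKM in hypoxia, overlapped between the groups, as did CHAC1, at 7.14 and 6.21 RPKM and 6.75 and 7.11 RPKM.

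The difference between the OC2 effects at both oxygen levels, tested as an interaction, was called for 5 of the 10 members, all with a more positive effect in hypoxia, against 2.34% of all genes in this direction and 1.35% in the other. These were GDF15, CHAC1, TRIB3, DDIT3 and ASNS, and 0 of the 10 had an adjusted p under 0.05 (limma, smallest 0.0724 for DDIT3), as had 0.244% of all genes. The drop of GDF15 in normoxia, for which it was chosen, enters its interaction, so its place in these counts is a description. At an unadjusted P under 0.05 there were 7 members, GDF15 among them, in the positive direction and 1, PPP1R15A, in the other. How many of all genes passed this limit is not given here. Without EV replicate 2 in normoxia 3 members were called, and without EV replicate 1 there 7. In PC3 cells the interaction of siOC2 and hypoxia was called for 2 members, TRIB3 and VLDLR, both with a less positive effect in hypoxia, against 0.696% of all genes in this direction and 0.246% in the other. Both had a limma adjusted p of 1.0, and after upper-quartile scaling, which moved the share of positive values among all calls from 26.1% to 50.4%, 0 members were called.

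The levels differed between the lines, which were quantified in separate tables and are set side by side without a test. GDF15 lay between 3.38 and 20.1 RPKM in PC3 libraries and between 78.4 and 858 RPKM in LNCaP libraries. ATF3 lay between 1.08 and 5.12 RPKM and between 48.2 and 108 RPKM, and ASNS between 4.74 and 34.3 RPKM and between 55.6 and 175 RPKM. ATF4 was the most abundant of the 10 by RPKM in all 8 PC3 libraries, and in LNCaP cells the highest value was that of GDF15 in EV replicate 2 in normoxia.

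The rest of the pathway was followed through lists of its other genes. The upstream list holds the 4 eIF2 kinases, the alpha subunit of eIF2, its exchange factor eIF2B and the second phosphatase subunit PPP1R15B, 11 genes in all. With siOC2 in PC3 cells 0 of these 11 were called in normoxia and 0 in hypoxia, with 1 higher at an unadjusted P under 0.05 in each, where 3.62% and 3.55% of all genes were called higher and 1.59% and 3.95% lower. With OC2 in LNCaP cells 0 were called at either oxygen level, where 2.81% and 3.7% of all genes were called higher and 0.48% and 0.773% lower. At an unadjusted P under 0.05 (limma) there were 0 in normoxia, and 5 lower and 1 higher in hypoxia, without a share of all genes beside them. In hypoxia 1 was lower at a limma adjusted p under 0.05, against 4.82% of all genes. The median log2 fold change of the list there was -0.21, beside -0.01 for all genes. Of 5 partners of ATF4 and related factors 4 were tested in PC3 cells, and 0 were called with siOC2 in normoxia or hypoxia (limma), with 1 higher at an unadjusted P under 0.05 in normoxia. In PC3 hypoxia EIF2B3, a subunit of eIF2B, was called lower in siCtrl cells (log2 fold change -1.36 ± 0.41 SE, adjusted p = 0.416 by limma) and in siOC2 cells (log2 fold change -1.18 ± 0.41 SE, adjusted p = 0.719 by limma).

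Of the amino acid genes downstream of ATF4 in PC3 cells with siOC2 in normoxia, 2 of 8 transporters, 1 of 12 aminoacyl-tRNA synthetases and 0 of 8 tested synthesis and one-carbon enzymes were called, all higher, against 3.62% of all genes, and no enzyme had an unadjusted P under 0.05. Their median log2 fold changes were 0.68, 0.55 and 0.35, beside 0.13 for all genes. SLC7A11, the cystine transporter, was at 3.37 and 2.64 RPKM with siCtrl and at 4.58 and 9.57 RPKM with siOC2 (log2 fold change 1.13 ± 0.43 SE, adjusted p = 0.481 by limma). Without the siRNA2 library its log2 fold change was 0.60, under 2-fold. SLC1A4, a neutral amino acid transporter, was at 4.44 and 5.51 RPKM with siCtrl and at 13.6 and 7.96 RPKM with siOC2 (log2 fold change 1.06 ± 0.34 SE, adjusted p = 0.384 by limma). It fell to 0.68, also under 2-fold, without the siRNA1 library. GARS, the glycyl-tRNA synthetase, was at 95.5 and 108 RPKM with siCtrl and at 330.0 and 202 RPKM with siOC2 (log2 fold change 1.34 ± 0.31 SE, adjusted p = 0.203 by limma), and the groups did not overlap, but without the siRNA1 library GARS was at 0.99 and not called.

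In hypoxia SLC7A11, SLC3A2, its heavy-chain partner, and GARS were called higher with siOC2, at log2 fold changes of 1.89, 1.19 and 1.40 (limma adjusted p = 0.135, 0.136 and 0.128). Of the other ATF4 targets in normoxia, STC2, a secreted glycoprotein, was called higher (log2 fold change 1.23 ± 0.28 SE, adjusted p = 0.203 by limma) and VEGFA, the angiogenic factor that HIF also drives, lower (log2 fold change -1.66 ± 0.59 SE, adjusted p = 0.438 by limma). VEGFA was at 138 and 170 RPKM with siCtrl, 100.1 RPKM with siRNA1 and 23.3 RPKM with siRNA2. Between hypoxia and normoxia in siCtrl cells, STC2 and DDIT4, which codes for the mTORC1 inhibitor REDD1, were called higher (log2 fold changes of 1.51 and 2.26) and SLC7A11 lower (-1.12), and 0 of the 12 synthetases and 8 enzymes had an unadjusted P under 0.05.

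**Figure D5:**
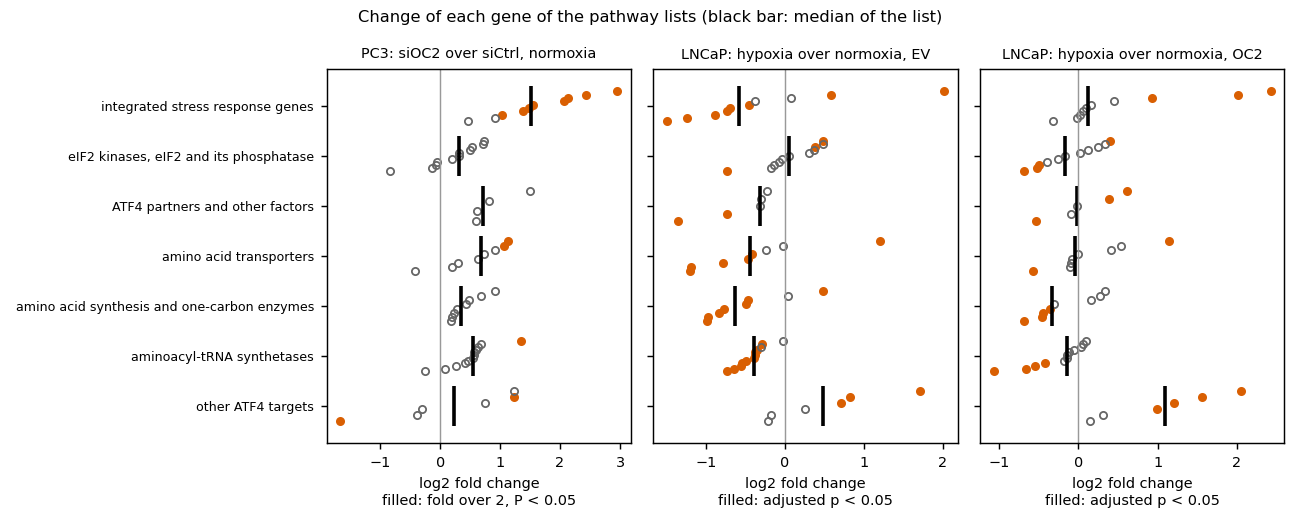
Log2 fold change (x axis) of each tested gene of the pathway lists (rows, height within a row without meaning), in PC3 cells with siOC2 over siCtrl in normoxia and in LNCaP cells for hypoxia over normoxia with EV and with OC2. Filled points passed the limit named under each panel and bars are list medians; in EV cells 10 of 12 aminoacyl-tRNA synthetases are filled and lie left of 0, and with OC2 4 of 12.

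In LNCaP cells 0 genes of these 3 amino acid lists were called with OC2 over EV at either oxygen level. In normoxia 2 synthetases, 2 enzymes and 1 transporter were lower at a limma adjusted p under 0.05, against 1.7% of all genes. At an unadjusted P under 0.05 there were 6, 7 and 4, for which the share of all genes is not given. More of them were lower in hypoxia than in normoxia in EV cells. At a limma adjusted p under 0.05, 10 of 12 aminoacyl-tRNA synthetases, 6 of 8 tested synthesis and one-carbon enzymes and 5 of 8 transporters were lower, and 0, 1 and 1 higher, where 14.1% of all genes were lower and 18.2% higher. Their median log2 fold changes were -0.39, -0.63 and -0.44, beside 0.02 for all genes, so that most of these changes were under 2-fold. Without EV replicate 2 in normoxia, 6, 6 and 2 genes were lower, with 1274 of all 12283 genes. Without EV replicate 1 in hypoxia 3, 4 and 2 were lower, with 617 of all genes, and without EV replicate 2 there 3, 5 and 2, with 761. The transporters SLC1A5 (glutamine) and SLC7A11 were called lower, at log2 fold changes of -1.21 (± 0.14 SE, adjusted p = 0.000758 by limma) and -1.19 (± 0.19 SE, adjusted p = 0.00298 by limma). SLC38A2, another neutral amino acid transporter, was called higher, from 141 and 119 RPKM to 289 and 309 RPKM (log2 fold change 1.20 ± 0.23 SE, adjusted p = 0.00604 by limma). ATF5, a factor related to ATF4, was called lower, from 31.9 and 47.1 RPKM to 14.7 and 15.4 RPKM (log2 fold change -1.36 ± 0.17 SE, adjusted p = 0.000846 by limma). These 4 genes stayed called without EV replicate 2 in normoxia, at -1.02 for SLC1A5, -1.28 for SLC7A11, 1.08 for SLC38A2 and -1.08 for ATF5.

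With OC2, hypoxia over normoxia gave 4 of 12 synthetases, 4 of 8 enzymes and 1 of 8 transporters lower at a limma adjusted p under 0.05, against 8.49% of all genes. VEGFA, KLHL24 and DDIT4 of the other ATF4 targets were called higher, at log2 fold changes of 2.05, 1.56 and 1.21 (limma adjusted p = 2.31e-05, 0.000213 and 0.000534). In EV cells 1 of the 6 tested genes of that list was called higher in hypoxia, against 5.6% of all genes. At a limma adjusted p under 0.05, 3 were higher there and 0 lower, against 18.2% and 14.1% of all genes. The list median was 0.49 with EV and 1.10 with OC2 on the log2 scale. The difference between the EV and OC2 hypoxia effects, the same interaction as above, had an adjusted p under 0.05 for 0 genes of these lists (limma). At an unadjusted P under 0.05, 5 synthetases, 4 transporters and 2 enzymes were positive, again without the share of all genes. SLC7A11 was called in this interaction (log2 fold change 1.09, limma adjusted p = 0.127), and TARS in the other direction (log2 fold change -1.04, limma adjusted p = 0.216). TARS was listed between 2381 and 6912 RPKM in LNCaP cells, far above the other 11 synthetases, which lay between 30.4 and 651 RPKM, so that its values in LNCaP cells, and its part in the counts of synthetases, are uncertain.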

How the data were processed

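The authors made stranded mRNA libraries, aligned trimmed reads to hg19 (GRCh37) with STAR 2.4.2a and obtained RPKM for each gene from Cufflinks 2.1.1, using GENCODE gene models. The deposited RPKM tables, 1 for each cell line, were used without further scaling. RPKM are not counts, so counting error is unknown, and reads shared with overlapping or antisense genes, such as VLDLR-AS1, cannot be told apart where counting ignored strand, which is not given in the sources used here. Relative depth was read from the steps between low values.

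In each line a limma model (version 3.58.1, R 4.3.3) of the 4 groups, with a variance trend and without a block, was applied to log2(RPKM + 0.1). It covered genes that reached 1 RPKM in 2 or more libraries, 12214 in PC3 and 12283 in LNCaP. Fold changes are on this scale, which understates those of low genes. Calls used the limits of the study, more than 2-fold with an unadjusted P under 0.05, and p-values were adjusted by Benjamini-Hochberg across the whole table. Tests are 2-sided. The members and the pathway lists were chosen with earlier results of these data known, so their counts are descriptions beside the share of all genes called. Named are all 10 members and, of each other list and comparison, up to 3 called genes with the largest change. Scripts were tested on simulated data. Alternatives were another pseudocount (1), another RPKM limit (5 or none), upper-quartile scaling, calls at adjusted p, a fit of only the groups compared, a replicate block and leaving out each library. A crossed block and list counts without single libraries were added after seeing the data. Promoter windows come from RefSeq (GRCh38.p14) and were placed in GRCh37 by exact match. All 10 members and 40 of 53 other pathway genes had a window.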

Additional observations from a re-analysis of the deposited data

Results flagged for a closer look

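In LNCaP cells the effect of OC2 differed between oxygen levels, by an unadjusted limma P under 0.05 and over 2-fold, for 5 members. The interaction on the log2 scale, the effect in hypoxia less that in normoxia, was 2.34 for GDF15 (± 0.76 SE), which was chosen for its drop in LNCaP cells and gets no p here, 1.55 for CHAC1 (± 0.41 SE, adjusted p = 0.137 by limma), 1.34 for TRIB3 (± 0.35 SE, adjusted p = 0.136 by limma), 1.30 for DDIT3 (± 0.23 SE, adjusted p = 0.0724 by limma) and 1.27 for ASNS (± 0.27 SE, adjusted p = 0.098 by limma). Without replicate 2 of EV in normoxia these were 1.29, 1.04, 0.92, 1.09 and 0.96, so that TRIB3 and ASNS lost their calls. The other 4 did not pass the adjustment over all genes. In EV cells GDF15 was at 199 and 858 RPKM in normoxia, so the size of its interaction depends on which of these libraries is taken.

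In PC3 cells the effect of siOC2 differed between oxygen levels for TRIB3, with an interaction of -1.07 (± 0.44 SE, adjusted p = 1.0 by limma), and for VLDLR, with -1.11 (± 0.48 SE, adjusted p = 1.0 by limma). For both, the value in the siCtrl libraries was already higher in hypoxia, as given above. Both calls were lost with a pseudocount of 1, at -0.95 for TRIB3 and -0.74 for VLDLR, after upper-quartile scaling, at -0.91 and -0.95, and with the replicate block.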

How the results depend on the processing

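With calls at an adjusted p, the count of members was 0 for siOC2 over siCtrl in normoxia (8 otherwise) and in hypoxia (3), 0 for hypoxia in siOC2 cells (2) and 0 for both interactions (2 in PC3, 5 in LNCaP), and it was 5 and 3 for OC2 over EV in normoxia (3) and hypoxia (0) and 8 for hypoxia in EV cells (3). A pseudocount of 1 gave 1 for hypoxia in siOC2 cells. For the PC3 interaction a pseudocount of 1 and upper-quartile scaling gave 0, and no limit or a limit of 5 RPKM gave 1. Upper-quartile scaling gave 1 for OC2 over EV in hypoxia, PPP1R15A at 1.04. Leaving out 1 library, the counts ranged from 6 to 8 and from 3 to 5 for siOC2 over siCtrl in normoxia and hypoxia, from 1 to 2 for hypoxia in siCtrl and in siOC2 cells, from 0 to 2 for the PC3 interaction, from 2 to 5 and from 0 to 1 for OC2 over EV in normoxia and hypoxia, from 2 to 5 for hypoxia in EV cells, from 2 to 3 in OC2 cells and from 3 to 7 for the LNCaP interaction. The log2 fold change of ATF4 with siOC2 turned to -0.32 in normoxia and -0.51 in hypoxia without the siRNA1 library, and ranged from -0.32 to 1.26 and from -0.51 to 1.19 over the libraries left out. A lone library left in a group is assumed to vary like the other groups.

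With the replicate number as a block the PC3 interaction count went from 2 to 0, and to 1 after crossing both siCtrl numbers in normoxia (chosen after seeing the data, since same-numbered deviations correlated at -0.107 and -0.186 there). No other count of members changed with the block, while the adjusted p of TRIB3 and ATF4 for OC2 over EV in normoxia became 0.059 and 0.0571. Same-numbered libraries correlated at 0.618 between the siOC2 groups, which share the siRNA, and at 0.275 between the LNCaP groups in hypoxia, but not in all pairs, so that, apart from the siOC2 groups, the libraries share only a number. Depth limits low values most, such as CHAC1 and SESN2 in the siCtrl libraries.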

Other observations

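Neighbouring pathways were counted in the same fits. Of 8 unfolded protein response genes, which ATF6 and XBP1 drive in the endoplasmic reticulum, 1 was called higher with siOC2 in PC3 normoxia, against 3.62% of all genes, HERPUD1, a factor of protein degradation, at 53.4 and 71.8 RPKM with siCtrl, 324 RPKM with siRNA1 and 92.4 RPKM with siRNA2 (log2 fold change 1.48 ± 0.62 SE, adjusted p = 0.523 by limma). In PC3 hypoxia 0 of the 8 were called with siOC2 (limma), and 0 had an unadjusted P under 0.05. In EV LNCaP cells 4 of the 8 were lower in hypoxia at a limma adjusted p under 0.05 and 0 higher, against 14.1% and 18.2% of all genes, and 4 were lower without EV replicate 2 in normoxia, but 2 and 3 without EV replicate 1 and 2 in hypoxia. Among them was SDF2L1, from 9.44 and 12.1 RPKM to 4.16 and 3.99 RPKM (log2 fold change -1.37 ± 0.15 SE, adjusted p = 0.000474 by limma).

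Of the p53 target genes, CDKN1A, the cell cycle inhibitor p21, and TP53INP1 were called higher with siOC2 in PC3 normoxia, 2 of 9 tested, with 0 lower, against 3.62% and 1.59% of all genes. By sign 5 of the 9 were higher and 4 lower, with a median log2 fold change of 0.24, beside 0.13 for all genes. MDM2 was 0.778-fold with siRNA1 and 0.293-fold with siRNA2, against the mean of the siCtrl libraries. CDKN1A was at 6.26 and 6.98 RPKM with siCtrl and at 20.6 and 27.6 RPKM with siOC2 (log2 fold change 1.83 ± 0.35 SE, adjusted p = 0.167 by limma). In LNCaP cells 5 of 10 p53 target genes were higher with OC2 in hypoxia at a limma adjusted p under 0.05 and 0 lower, against 6.72% of all genes higher, though 0 reached 2-fold.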
